A study of Homo sapiens with 30 samples.

Results

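Cells of subclone 2 of MDA-MB-231, a human triple-negative breast cancer line, were sorted, according to their labels, from lung and liver metastases of the same 3 mice in a retransplantation experiment, and their RNA was sequenced. The organ on the label is taken here as the organ the cells were recovered from. The 6 libraries, 1 from each organ of mice 4, 5 and 6, are part of a series of 30 libraries, and they were chosen by their labels and paired by mouse number. The line carried LeGO barcodes, which are lentiviral tags that mark the offspring of 1 cell. The hosts were NOD-SCID-IL2Rγc−/− (NSG) mice, which lack T, B and natural killer cells, so any response of those cells is missing from both organs. Every sample therefore shares the line, the subclone, the host strain and the retransplantation. They differ in the organ named on the label and in the mouse. The labels give no age of the mice, no injection route, no time between injection and collection, and no statement of which organ the retransplanted cells had come from. In the first experiment of the series, labelled as not retransplanted, subclone 2 was sorted from lung and liver of mice 1 to 3. The comparison asks how the RNA of the same clone differs between the organs in which it grows.

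Lung and liver differ in their blood supply, oxygen, matrix and resident cells, and tumour cells growing in them meet different cytokines and nutrients. Cells commonly answer such signals through a few transcriptional programs: NF-kB, which drives chemokine and cytokine genes and its own inhibitors; BMP signalling through SMAD proteins, which drives the ID genes; and NRF2, which drives enzymes that handle oxidants and electrophiles. Subclone 2 is a single clone, so these data describe that clone and not the line as a whole.

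Each library held 23.4 to 32.3 M counts (M, 1e6 counts), all from sequencing run 4. Values are given as CPM, read counts relative to the library total after scaling by TMM, which corrects that total for the library's composition. VIM, the mesenchymal filament protein vimentin and a marker of MDA-MB-231, was at 3612 to 7485 CPM in all 6 libraries. ESR1, PGR and CDH1, listed as low in the line, stayed at or under 1.09 CPM. The 8 markers listed as expressed in the line summed to 6845 to 11301 CPM of total counts. The 6 listed as low, which also include ERBB2, GATA3 and EPCAM, summed to 85.7 to 102 CPM of total counts. One library stood apart. The liver library of mouse 5 lay at 86.3 on the first principal component, which carried 38.4% of the variance, while the other 5 lay between -35.3 and -5.85. In that library MUC5AC and MUC5B, which encode secreted mucins, were at 125 and 36.1 CPM, against 1.47 to 1.78 and 0.0849 to 0.125 CPM in the other livers. Results were therefore also computed without mouse 5. In bulk RNA, fewer cells of a type and less RNA per cell cannot be told apart. The counted genes are human and the hosts were mice, so RNA of host cells is counted only where its reads align to human genes. Low counts of a cell type marker therefore do not show that host cells were absent.

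The lung samples carried more RNA of the chemokines CXCL1, CXCL3 and CXCL8, of ID2, ID3 and BMP4 and of HLA-DRA than the liver samples of the same mice. They carried less RNA of the lipocalins LCN1, OBP2A and PAEP, of HMOX1 and of AKR1C2 and AKR1C3. Of 17549 genes tested, 84 (0.479%) passed an adjusted p of 0.05 in edgeR's paired quasi-likelihood fit, where each mouse is a block. In 69 (0.393%) the RNA was higher in lung and in 15 (0.0855%) it was lower. In every one of the 84 all 3 mice moved in the same direction, and the smallest change was 1.01 on the log2 scale. In 73 the lung and liver values did not overlap. Over all genes tested, every lung value lay above every liver value in 9.98% and below in 9.13%. All 3 mice were higher in lung in 20.2% of all genes and lower in 20.6%. The 84 were picked by the paired test on these same values, so these counts are no separate support. The median change over all genes tested was -0.0019. The count of calls rested on the pairing and on the filter: 0 genes passed without the mouse block (2198 at an unadjusted p of 0.05), 43 passed when a gene had to reach 1 CPM in 3 samples, 1523 passed with no filter, and DESeq2 called 664, among them 82 of the 84. Without mouse 5 the count was 109, of which 60 were among the 84, and all 84 kept their sign; without mouse 4 it was 149, with 56 shared.

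**Figure D1:**
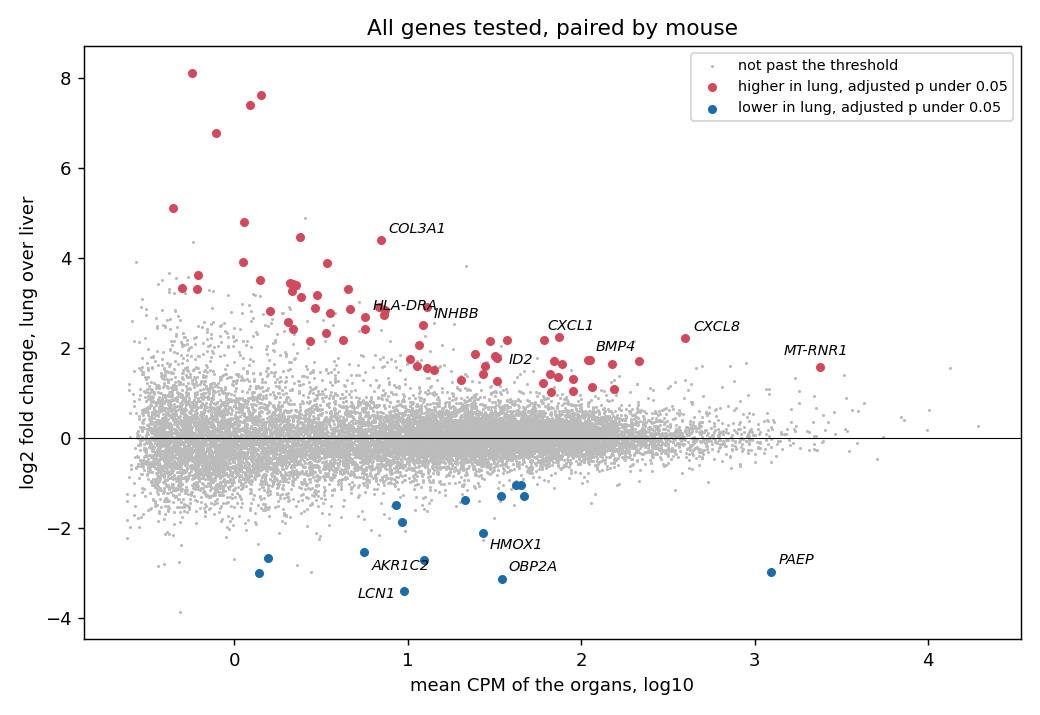
Each point is 1 of 17549 genes, with the log10 of its mean CPM in the organs on the x axis and its log2 fold change, lung over liver, from the paired fit on the y axis. The 69 genes higher in lung (red) outnumber the 15 lower genes (blue), and CXCL8, MT-RNR1 and PAEP are among the most abundant of them.

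The smallest p-value of all genes was that of CXCL1. This ligand draws neutrophils through CXCR2, and its RNA was at 60.9, 88.4 and 150 CPM in the lung samples of mice 4, 5 and 6 and at 13.7, 21 and 31.1 CPM in their liver samples. Every lung value lay above every liver value, and the order of the mice was the same in both organs. The fold change was 2.17 ± 0.15 on the log2 scale (SE, n = 3 mice, adjusted p = 0.0166). CXCL8, or interleukin-8, another neutrophil attractant, stood at 488, 663 and 803 CPM in lung and at 111, 168 and 138 CPM in liver. The gap between the organs exceeded the spread within either, and the change was 2.22 ± 0.20 (adjusted p = 0.0167). CXCL3 reached 100, 165 and 251 CPM in lung against 42.0, 34.7 and 79.0 CPM in liver, a change of 1.72 ± 0.22 (adjusted p = 0.0259). CXCL2, a close relative of that gene, had the same sign in all mice (408, 553 and 1129 against 159, 306 and 203 CPM) and did not pass (1.56 ± 0.31, adjusted p = 0.0903). Transcripts of CXCL1, CXCL2 and CXCL3 are similar in sequence, so reads may be split among them.

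IL6, the cytokine that signals through STAT3, was at 167, 319 and 202 CPM in lung and 81.2, 91.1 and 47.1 CPM in liver. The organs did not overlap (1.65 ± 0.23, adjusted p = 0.0372), and the call was lost without mouse 5 (adjusted p = 0.0608) and with a minimum of 1 CPM in 3 samples (adjusted p = 0.0581). IL24, a low gene of the IL-10 family, was at 0.751 to 1.21 CPM in lung and at 0.0424 to 0.125 CPM in liver (3.33 ± 0.49, adjusted p = 0.0443). It passed the filter on low counts through its lung level, so its call is no separate support. Of 24 chemokine and haematopoietic cytokine genes tested, 5 were higher in lung (CXCL1, CXCL3, CXCL8, IL6 and IL24), 0 were lower and 19 did not pass. The median was 0.78, and 0.393% of all genes were called higher. Lists were chosen with earlier results of these data known, so member counts here and below are no separate support. With the 1 CPM minimum 3 of 20 were called, in a fit that called fewer genes among all those tested. The growth factors CSF2 (27.4, 47.8 and 80.2 against 8.10, 33.6 and 8.14 CPM) and CSF1 (190, 191 and 278 against 125, 114 and 70.0 CPM) were among those 19, at adjusted p-values of 0.147 and 0.145.

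CXCL1, CXCL3 and IL6 of this group, and TNFAIP3 of the NF-kB list below, were called and hold a match to the NF-kB consensus. Promoter sequences of these 4 genes are shown, to place the match relative to the start of each gene. They are the 150 bases before the RefSeq start on the gene's own strand (GRCh38.p14), for CXCL1 at chr4:73869243-73869392 (+ strand), CXCL3 at chr4:74038690-74038839 (- strand), IL6 at chr7:22727050-22727199 (+ strand) and TNFAIP3 at chr6:137867109-137867258 (+ strand). Capitals mark the match, and overlapping matches run together.
CXCL1: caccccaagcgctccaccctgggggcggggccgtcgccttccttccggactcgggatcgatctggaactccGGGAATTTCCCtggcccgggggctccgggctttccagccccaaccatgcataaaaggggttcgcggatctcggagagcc
CXCL3: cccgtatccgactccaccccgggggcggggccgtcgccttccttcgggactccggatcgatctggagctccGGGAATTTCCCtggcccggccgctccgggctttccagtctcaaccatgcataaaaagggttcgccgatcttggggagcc
IL6: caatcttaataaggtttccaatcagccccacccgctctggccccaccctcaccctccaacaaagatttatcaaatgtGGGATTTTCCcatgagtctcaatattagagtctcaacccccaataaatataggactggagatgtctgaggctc
TNFAIP3: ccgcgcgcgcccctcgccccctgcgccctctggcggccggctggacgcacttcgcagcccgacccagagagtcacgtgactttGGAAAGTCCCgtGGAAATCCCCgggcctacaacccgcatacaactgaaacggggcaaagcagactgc
In CXCL1 and CXCL3 the matches begin at the same distance, 79 bases before the start, and 129 of the 150 bases are identical (86.0%). The consensus, searched on both strands in the 250 bases before the start, occurred in 9.96% of 35116 RefSeq promoters. CXCL2, which was not called, also held overlapping matches, the first of them beginning 78 bases before the start. ID2, a called gene given below as a BMP target, held 1 match beginning 64 bases before the start. The match was therefore not particular to the genes of the NF-kB list. CXCL8 held no match in its window, which says only that these letters are not there. A relaxed form of the motif had 1 match in the window of CXCL8. Of 49 called genes higher in lung with a promoter in the table, 8 (16.3%) held the match, and of 11 lower genes 1 (9.09%) did. A match is a description of the sequence and shows no binding.

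The wider NF-kB list had the sign of the chemokines but few calls. Of 45 members tested, 5 were higher in lung, against 0.393% of all genes called higher, and 0 were lower. The median was 0.74, 39 members were positive, and in 16 all lung values lay above all liver values, which held for 9.98% of all genes tested. Among the ligands all 11 tested were positive (median 1.73), with 4 calls. These were CXCL1, CXCL3, CXCL8 and IL6, which are also counted in the chemokine and cytokine list above. Among the receptors and adaptors all 9 were positive, with 0 calls. The 5 subunits of NF-kB itself were also positive without a call: RELB had the highest change (1.02 ± 0.26, adjusted p = 0.144) and NFKB2 the lowest (0.15 ± 0.22, adjusted p = 0.784). Of the 8 inhibitors, TNFAIP3, which encodes the A20 protein that ends NF-kB signalling, was called. It was at 297, 347 and 334 CPM in lung and 85.0, 144 and 79.2 CPM in liver (1.71 ± 0.21, adjusted p = 0.0244). The lung values sat close together and the liver of mouse 5 was the highest of the livers. NFKBIA, the main cytoplasmic inhibitor, was at 849, 1185 and 1133 CPM against 432, 625 and 302 CPM (1.26 ± 0.25, adjusted p = 0.0897) and did not pass. Without mouse 5, 8 members were called higher and 0 lower, in a fit that also called more genes among all those tested.

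**Figure D2:**
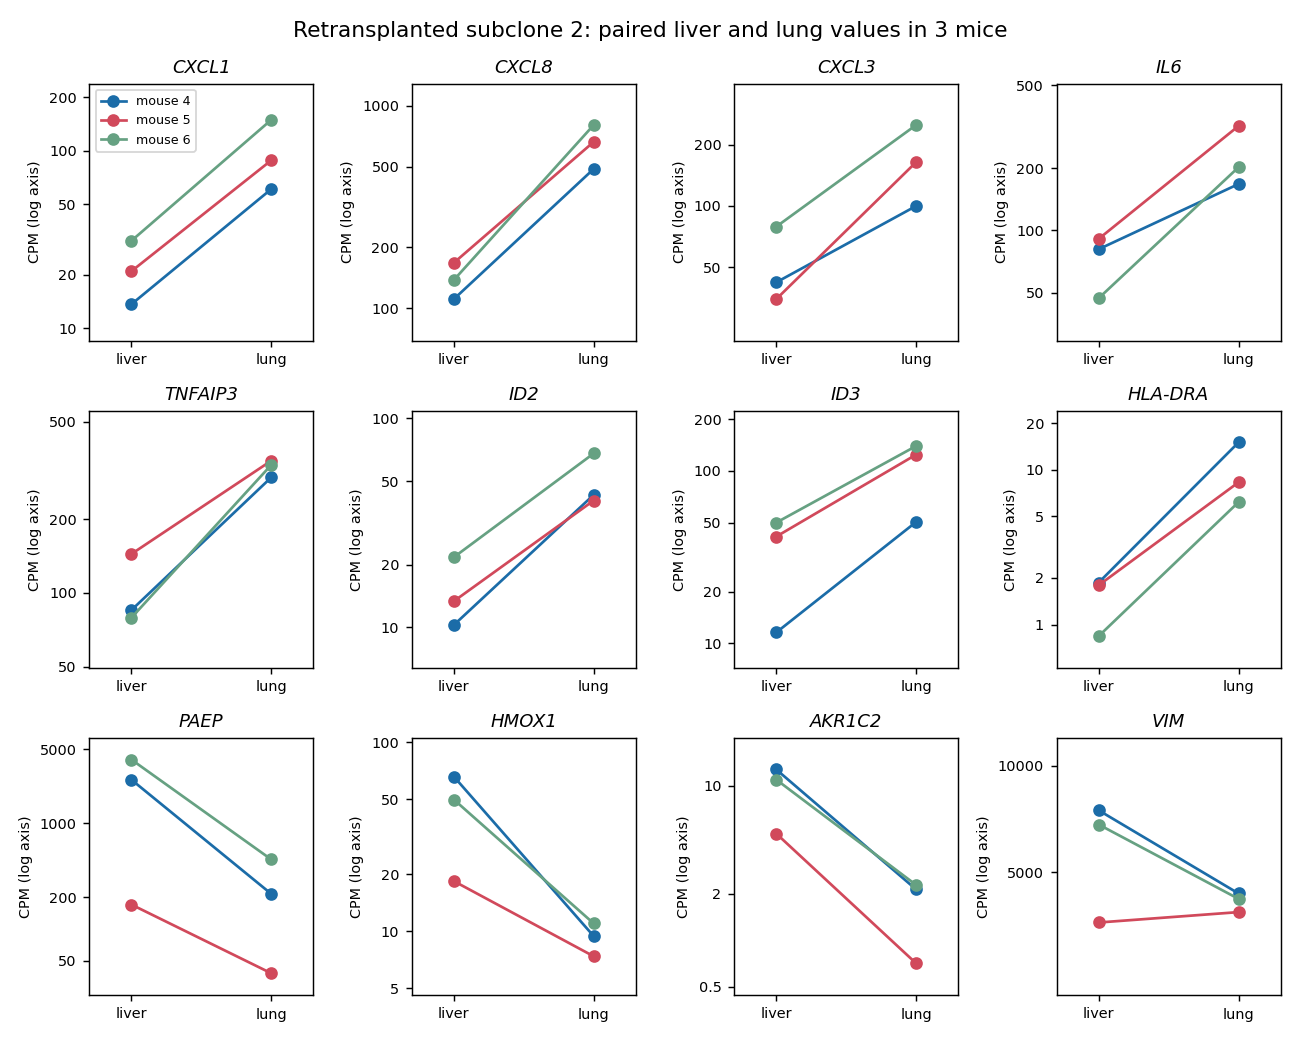
CPM on a log axis in the liver and lung sample of each mouse (blue, mouse 4; red, mouse 5; green, mouse 6), with a line joining the samples of 1 mouse. The lines rise in all mice for the 8 genes in the upper panels, fall in all mice for PAEP, HMOX1 and AKR1C2, and differ in direction for VIM (log2 -0.46 ± 0.27, adjusted p = 0.429).

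ID2 and ID3 encode inhibitors of basic helix-loop-helix transcription factors and are targets of BMP signalling. ID2 was at 43.1, 40.5 and 68.0 CPM in lung and at 10.3, 13.3 and 21.7 CPM in liver (1.77 ± 0.18, adjusted p = 0.0167). ID3 was at 50.6, 124 and 139 CPM in lung and at 11.6, 41.6 and 50.2 CPM in liver (1.72 ± 0.18, adjusted p = 0.0167). Mouse 4 was the lowest of the mice for ID3 in both organs, yet its lung value still exceeded every liver value. BMP4, a ligand of this pathway, was at 157, 263 and 92.0 CPM in lung and at 43.4, 69.0 and 34.6 CPM in liver (1.73 ± 0.17, adjusted p = 0.0167). ID1, at 257, 383 and 674 against 184, 356 and 343 CPM, overlapped between the organs (0.52 ± 0.21, adjusted p = 0.283), and ID4, at 24.3, 11.6 and 34.3 against 4.84, 8.42 and 8.54 CPM, did not overlap but did not pass (1.61 ± 0.36, adjusted p = 0.114). SMAD6 and SMAD7, feedback inhibitors of the pathway, had values of 0.27 ± 0.27 and 0.39 ± 0.25 and did not pass. In all, 3 of 18 members were higher in lung, against 0.393% of all genes called higher, and 0 were lower. The median was 0.45. Without mouse 5 the call count was 5, in a fit that also called more genes among all those tested. INHBB, which encodes the activin B subunit, a ligand of the TGF-beta family, was at 22.0, 33.0 and 5.16 CPM in lung and 1.74, 10.1 and 1.06 CPM in liver (2.51 ± 0.38, adjusted p = 0.0475). Its values overlapped between mice, and the difference held within each.

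MHC class II genes, which encode the molecules that show peptides to CD4+ T cells and are usually restricted to antigen-presenting cells, had positive changes in all 9 members tested, of which HLA-DRA and HLA-DPB1 passed. HLA-DRA, the alpha chain of HLA-DR, was at 15, 8.30 and 6.18 CPM in lung and at 1.87, 1.79 and 0.842 CPM in liver (2.69 ± 0.28, adjusted p = 0.0167). HLA-DPB1 was at 1.78, 1.08 and 0.493 CPM in lung and at 0.0849, 0.152 and 0.0624 CPM in liver (3.31 ± 0.51, adjusted p = 0.0488; 0.0656 without mouse 5). It passed the filter on low counts through its lung level. HLA-DRB1, at 5.98, 3.87 and 2.58 against 1.10, 0.0912 and 0.312 CPM, was just above the threshold (adjusted p = 0.0544), and it is similar in sequence to HLA-DRB5, so its reads may be shared. The invariant chain CD74 was the most abundant member, at 101, 77.7 and 102 CPM in lung and 55.8, 57.9 and 23.3 CPM in liver (1.13 ± 0.31, adjusted p = 0.162). CIITA, the activator that switches on the class II genes, was at 7.79, 4.54 and 3.94 against 3.90, 3.37 and 2.77 CPM (0.65 ± 0.26, adjusted p = 0.280). All 9 members tested had every lung value above every liver value, against 9.98% of all genes, with a median of 2.08. A member low in liver, such as HLA-DPB1, entered the test through its lung level. This separation and the median are therefore partly fixed by the filter and are no separate support. The test was passed by 2 of them, against 0.393% of all genes called higher. It was passed by 1 of 6 with the 1 CPM minimum, where fewer of all genes tested were called. Members under the filter on low counts were not tested, so these are not all 12 members of the list. The summed level of the leukocyte markers, in CPM of total counts as for all marker sums, was 9.94 to 17.3 CPM in lung and 9.10 to 17.4 CPM in liver (exact paired permutation p = 1 over 3 mice, where 0.25 is the smallest possible). Of 17 markers 6, among them TYROBP, C1QA and S100A8, were not among the genes of the table, which holds no gene at 0 in all 6 libraries. PTPRC, which encodes the leukocyte antigen CD45, was at 1.41, 1.12 and 2.99 CPM in lung and 0.297, 0.334 and 0.312 CPM in liver (2.43 ± 0.43, adjusted p = 0.0766). The groups did not overlap. With 7, 11 and 10 counts in liver, PTPRC passed the filter on low counts through its lung level, so this separation is no separate support. The part of these markers in the class II values was not tested. MHC class I genes had a median of 0.21 with 0 of 16 called.

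**Figure D3:**
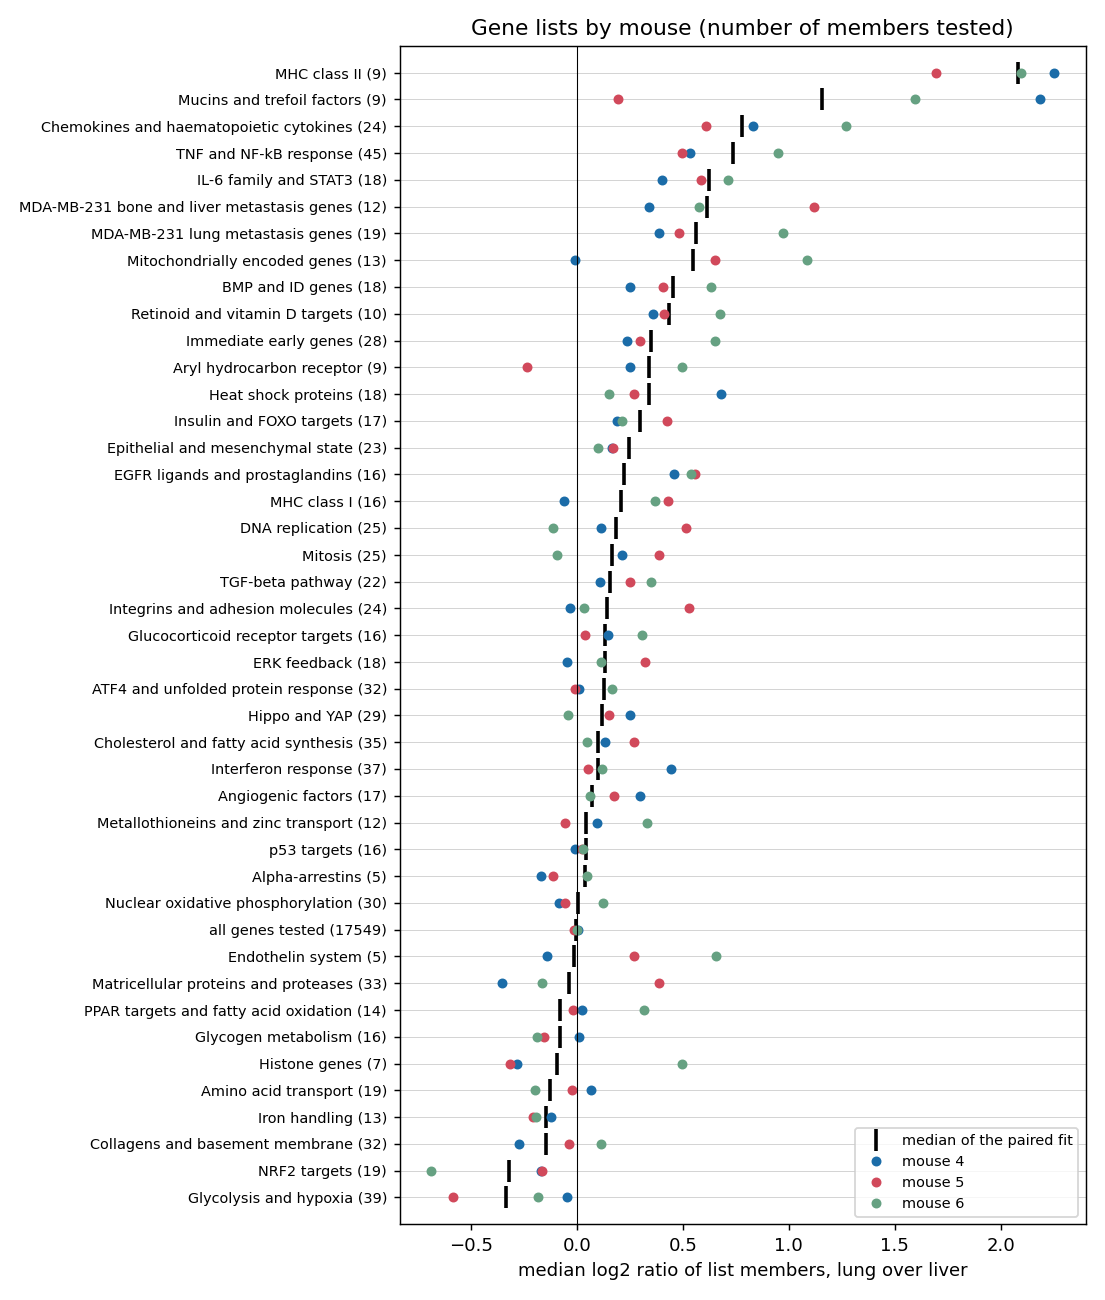
Each row is a gene list with its number of tested members; coloured points give the median log2 ratio of lung over liver of its members in mouse 4 (blue), 5 (red) and 6 (green), and the bar the median of the paired fit. The MHC class II points lie between 1.69 and 2.25, and the point of mouse 5 is the lowest of the mucin list (0.19), while all genes tested lie at 0.

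Other genes higher in lung encoded secreted proteins, enzymes and receptors. GDF15, a stress-induced cytokine and a target of p53, was at 6.70, 11.8 and 9.29 CPM in lung and 0.806, 4.19 and 1.25 CPM in liver (2.43 ± 0.37, adjusted p = 0.0475), and BTG2, an antiproliferative p53 target, was at 9.64, 31.0 and 15.3 against 1.91, 7.84 and 3.99 CPM (2.07 ± 0.21, adjusted p = 0.0167). They were the 2 calls among 16 p53 targets, whose median was 0.04, against 0.393% of all genes called higher. ADAMTS1, a secreted protease that cleaves proteoglycans, was at 130, 77.3 and 148 CPM in lung and 16.2, 15.1 and 57.5 CPM in liver (2.24 ± 0.30, adjusted p = 0.0342; 0.0554 without mouse 5). KRT81, a hair keratin that resembles KRT86 in sequence, was at 61.0, 66.6 and 54.7 against 21.4, 13.2 and 8.48 CPM (2.18 ± 0.25, adjusted p = 0.0209). PTGER4, the EP4 receptor for prostaglandin E2, was at 88.1, 128 and 73.0 against 30.4, 36.7 and 39.3 CPM (1.41 ± 0.20, adjusted p = 0.0437). SLC30A10, a manganese exporter, rose from 0.297 to 0.730 CPM in liver to 3.60 to 8.63 CPM in lung (3.17 ± 0.38, adjusted p = 0.0252), and RASGRP3, an activator of Ras proteins, from 1.46 to 2.40 CPM to 6.95 to 18.9 CPM (2.72 ± 0.29, adjusted p = 0.0167).

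The cancer-testis antigen MAGEB2 (12.5, 2.68 and 4.25 against 0.509, 0.426 and 0.187 CPM), the carboxypeptidase CPA4 (25.5, 6.70 and 4.62 against 1.65, 1.25 and 0.935 CPM), CCDC190 (11.0, 3.05 and 9.97 against 1.53, 0.0912 and 1.31 CPM) and SLITRK6 (6.42, 3.94 and 6.56 against 1.23, 0.821 and 1.28 CPM) had log2 changes of 3.89 ± 0.46, 2.90 ± 0.38, 3.30 ± 0.41 and 2.33 ± 0.27. All 4 were low in liver, and mouse 5 was the lowest lung sample for MAGEB2, CCDC190 and SLITRK6. The ferritin pseudogenes FTH1P2 (2.87 ± 0.36) and FTH1P16 (2.83 ± 0.28) were also called. They are nearly identical to the ferritin heavy chain gene FTH1, which was at 134 to 220 CPM in lung and 121 to 208 CPM in liver (0.04 ± 0.17, adjusted p = 0.933), so the origin of their reads is uncertain. SNORD3B-2 (2.78 ± 0.38) is a copy of a repeated small nucleolar RNA gene and is uncertain in the same way.

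The collagen genes COL3A1 and COL1A2, which encode chains of fibrillar collagen, were higher in lung. COL3A1 was at 8.20, 18 and 13.9 CPM in lung and at 0.806, 0.395 and 0.655 CPM in liver (4.40 ± 0.43, adjusted p = 0.0167). COL1A2 was at 19.1, 16 and 32.3 CPM in lung and at 6.58, 1.28 and 2.68 CPM in liver (2.90 ± 0.44, adjusted p = 0.0475; 0.0671 without mouse 5). COL1A1 did not pass, at 30.9, 61.7 and 45.6 against 13.5, 37.8 and 15.1 CPM (1.16 ± 0.21, adjusted p = 0.0764). FBN2, which encodes the microfibril protein fibrillin-2, was at 32.3, 9.19 and 7.47 against 6.62, 3.43 and 2.59 CPM (1.75 ± 0.25, adjusted p = 0.0443). Among 32 genes of collagens and basement membrane, 2 were called higher, against 0.393% of all genes, and 0 lower. The median was -0.15. These collagens are also in the list of fibroblast and smooth muscle markers. The list summed to 78.1 to 113 CPM in lung and 41.9 to 84.9 CPM in liver, but the sum contains COL1A1, COL1A2 and COL3A1 and is no separate measure. Of 8 tested markers those 3 were positive and the other 5 negative, with a median of -0.22. The 3 fibroblast markers DCN, LUM and PDGFRA stayed at or under 0.372 CPM in all 6 libraries. PDGFRB was at 6.35, 8.15 and 14.8 against 15.9, 24.9 and 8.29 CPM and ACTA2 at 2.16 to 3.22 against 2.28 to 4.03 CPM, both without a call. The part of fibroblast RNA in the collagen values was not tested.

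Genes that mark lung epithelium were counted at low levels in the lung samples. SFTPC, a surfactant protein of alveolar type II cells, had 28, 81 and 92 counts in lung (0.876, 3.01 and 3.49 CPM) and 0, 1 and 0 in liver. NKX2-1, the transcription factor of lung identity, had 37, 71 and 124 counts in lung (1.16, 2.64 and 4.70 CPM) and 0, 0 and 1 in liver. Both entered the test through their lung counts, so the counts are given without a test. HBB, the beta chain of haemoglobin and an erythroid marker, had 29, 104 and 238 counts in lung and 3, 6 and 7 in liver, and entered the test in the same way. Of the 12 lung markers, SFTPA1 and SCGB3A2 were not among the genes of the table. SFTPB was at or under 0.149 CPM, SCGB1A1 at or under 0.0372 CPM, and NAPSA, AGER, FOXJ1 and LAMP3 were not called. Of the 6 lung markers tested, 4 were positive and 2 negative, the lowest at -0.61. In 1 of them every lung value lay below every liver value. The list summed to 27.9 to 30.2 CPM in lung and 11.4 to 31.2 CPM in liver (exact paired permutation p = 0.5), and the erythroid list to 1.02 to 9.66 and 0.342 to 1.09 CPM (p = 0.25 by the same exact test). The part of RNA from other cells in these values was not tested. Most human hepatocyte marker genes had few or no counts in the liver samples. ALB, the albumin gene, had 4, 5 and 4 counts there, and 16 of 20 hepatocyte markers stayed under 1 CPM in all 6 libraries. Their sum, 17.5 to 32.8 CPM in lung and 55.2 to 83.4 CPM in liver, came mostly from SERPINA1 (22.2, 26.8 and 14.2 against 75.2, 34.2 and 72.3 CPM; -1.50 ± 0.35, adjusted p = 0.127). SLIT3, a guidance ligand singled out after its values were seen, had 20, 34 and 40 counts in lung and 0 in all 3 livers, which allows up to 0.0339 CPM over the group (3 counts) and makes it at least 33.5-fold higher in lung. This limit covers counting error only.

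LCN1 and OBP2A, the called genes that fell most in lung, lie with PAEP in a cluster of lipocalin genes on chromosome 9. Lipocalins are small secreted carriers of hydrophobic molecules. PAEP encodes glycodelin, a lipocalin of the reproductive tract, and lies at chr9:135561756-135566955 on GRCh38. It was at 214, 38.1 and 453 CPM in the lung samples and at 2573, 170 and 3986 CPM in the liver samples of mice 4, 5 and 6. The organs overlapped, since the liver of mouse 5 was below the lung of mice 4 and 6, yet liver exceeded lung in each mouse (-2.97 ± 0.31, adjusted p = 0.0167). LCN1, tear lipocalin (chr9:135521438-135526532), was at 2.82, 0.186 and 2.35 CPM in lung and 30.4, 3.62 and 18 CPM in liver (-3.39 ± 0.30, adjusted p = 0.0167). OBP2A, an odorant-binding protein (chr9:135546139-135549969), was at 15.6, 0.409 and 8.76 CPM in lung and 123, 9.33 and 51.5 CPM in liver (-3.12 ± 0.32, adjusted p = 0.0167). In all 3 genes mouse 5 had the lowest value of its organ. OBP2B, named after its values were seen, lies apart on the same chromosome (chr9:133205277-133209250) and is nearly identical to OBP2A, so its reads may come from either. It was at 0.908, 0.0372 and 0.265 CPM in lung and 6.58, 0.304 and 1.34 CPM in liver (-2.67 ± 0.39, adjusted p = 0.0437). LCN1, OBP2A and PAEP are neighbours within 40.3 kb (start to start). The tested genes on either side, PPP1R26, PIERCE1, MRPS2 and CAMSAP1, had changes of -0.11 ± 0.16, -0.69 ± 0.24, -0.55 ± 0.17 and -0.04 ± 0.16, and none passed. ENSG00000226706, an antisense gene beside MRPS2, was at -1.22 ± 0.35 without a call (adjusted p = 0.170).

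**Figure D4:**
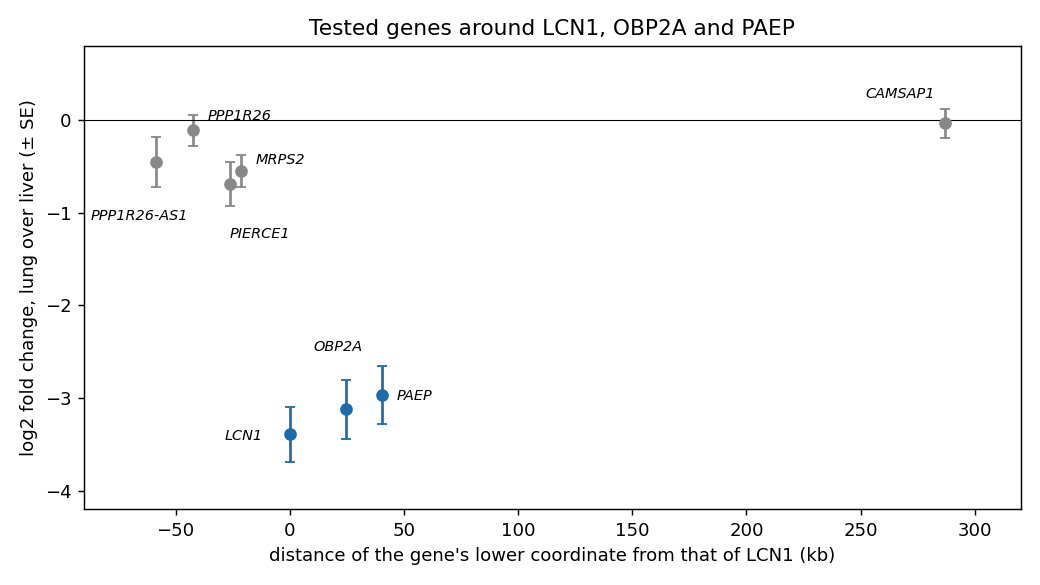
Log2 fold change, lung over liver, with its SE (n = 3 mice) for tested genes with a symbol, plotted by distance in kb from LCN1. LCN1, OBP2A and PAEP (blue, called) lie near -3, while the 5 genes around them (grey, not called) lie between -0.69 and -0.04.

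Enzymes of oxidant handling were also among the lower genes. HMOX1, haem oxygenase, which breaks haem down to biliverdin, iron and carbon monoxide, was at 9.42, 7.37 and 11.0 CPM in lung and at 65.9, 18.4 and 49.8 CPM in liver. The lung values were alike and the livers spread widely, with no overlap (-2.11 ± 0.29, adjusted p = 0.0342), and the call was lost when a gene had to reach 1 CPM in 3 samples (adjusted p = 0.0534). AKR1C2 and AKR1C3, aldo-keto reductases that reduce steroids and other carbonyls, were at 2.13, 0.707 and 2.27 against 12.7, 4.89 and 10.9 CPM (-2.53 ± 0.26, adjusted p = 0.0167) and at 34.6, 10.9 and 33.5 against 99.2, 23.4 and 78.0 CPM (-1.28 ± 0.16, adjusted p = 0.0259). AKR1C1, at 11.4, 3.16 and 13.8 against 50.6, 8.36 and 26.5 CPM, missed the threshold (-1.50 ± 0.26, adjusted p = 0.0715). The 3 genes are close relatives in sequence, and reads may be shared among them. Of 19 NRF2 targets tested, 3 were lower in lung (HMOX1, AKR1C2 and AKR1C3) and 0 higher, against 0.0855% of all genes called lower. The median was -0.32, 15 were negative, and in 5 all lung values lay below all liver values, against 9.13% of all genes tested. Without mouse 5, which raised the number of calls among all genes, the counts were again 3 and 0. With the 1 CPM minimum, which lowered that number, they were 2 and 0. The other classical targets did not pass: NQO1 was at -0.86 ± 0.18 (adjusted p = 0.105), GCLM at -0.46 ± 0.21 and SRXN1 at 0.24 ± 0.23. HMOX1 was also the single call among 13 iron-handling genes, which held 0 calls with the 1 CPM minimum; HFE, which restrains iron uptake, was at 18.5, 16.8 and 17.4 against 33.0, 28.7 and 31.9 CPM and did not pass (-0.83 ± 0.16, adjusted p = 0.0900).

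SERPINA5, the protein C inhibitor, was at 4.19, 1.56 and 3.75 CPM in lung and 13.8, 13.3 and 38.0 CPM in liver (-2.71 ± 0.35, adjusted p = 0.0265). ZNF117 (-1.87 ± 0.26) and ZBTB37 (-1.29 ± 0.18), zinc finger proteins, and UNC5B, a netrin receptor (-1.49 ± 0.23), were lower at adjusted p-values of 0.0372, 0.0372 and 0.0475, and SYTL1 (-1.05 ± 0.16) and TTLL3 (-1.04 ± 0.16) at 0.0456 and 0.0498. These 5 lost the call without mouse 5, at adjusted p-values of 0.0608 to 0.0808.

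Several lists held no call or few calls and are given as values. Of 39 glycolysis and hypoxia genes, 33 were negative, 9 had every lung value below every liver value (9.13% of all genes did) and the median was -0.33; PFKP, a phosphofructokinase, was at 198, 188 and 186 against 273, 360 and 331 CPM (-0.74 ± 0.18, adjusted p = 0.130). In this list the median ratio was -0.58 in mouse 5 and -0.05 in mouse 4. Of 18 heat shock genes 15 were positive (median 0.34), with DNAJB1, a co-chaperone of HSP70, at 1574, 1475 and 1684 against 644, 706 and 898 CPM (1.09 ± 0.20, adjusted p = 0.0783). Of 37 interferon response genes 0 were called and the median was 0.10. Of 28 immediate early genes 26 were positive, with BTG2 the only call. Among 19 genes linked in the literature to lung metastasis of MDA-MB-231, 2 were higher (CXCL1 and ID3) and 0 lower, with a median of 0.56. A list of 12 genes linked to its bone and liver metastasis moved the same way. In that list 1 was higher and 0 lower, 9 were positive and the median was 0.61, so the direction was not particular to the lung list. Of all genes tested, 0.393% were called higher.

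The same contrast in mice 1 to 3 of the first experiment was the closest comparison. In a joint fit of the 12 samples, with mouse as a block and 18950 genes, 170 genes (0.897%) were higher and 60 (0.317%) lower in lung in the first experiment. Tested directly in edgeR, the organ contrast differed between the experiments in 0 genes (0% of those tested; 2606 at an unadjusted p of 0.05), with a smallest adjusted p of 0.0837 for OASL (named after its value was seen), while DESeq2 called 567. A difference was therefore not detected by edgeR, which does not show that the contrasts are alike, and experiment and sequencing run cannot be told apart. Of the 84 genes called in the retransplantation, 16 (19.0%) were also called in the first experiment, where they made up 6.96% of 230 calls, and all 16 had the same direction. The 84 came from the fit of the 6 samples and the 230 from the joint fit. In the joint fit itself the retransplantation had 30 calls, of which 11 were shared with the first experiment. CXCL3, COL3A1, PAEP and BTG2 did not pass there for the retransplantation, at adjusted p-values of 0.0530, 0.0613, 0.278 and 0.290. The first experiment's count rested on each mouse: 14, 5 and 1 genes passed without mouse 1, 2 or 3, in that order. Of the 81 called genes with counts in the first experiment, 65 had the same sign there; over all genes of the joint fit 54.3% did.

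The 16 shared genes were CXCL1, CXCL3, CXCL8, IL6, ID2, ID3, KRT81, FAM43A, PLPP3, RASD1, ADAMTS1, SERTAD1, MT-RNR1 and ENSG00000279086, all higher in lung, and AKR1C3 and HMOX1, both lower. CXCL1 was at 33.2, 131 and 69.5 CPM in the lungs of mice 1 to 3 and at 6.16, 15.1 and 16.7 CPM in their livers (2.54 ± 0.21, adjusted p = 0.00503). HMOX1 was at 10.5, 9.41 and 6.10 CPM in those lungs and 46.3, 24.5 and 27.4 CPM in those livers (-1.88 ± 0.29, adjusted p = 0.0259). MT-RNR1, the mitochondrial 12S ribosomal RNA, changed by 1.57 in both experiments, at adjusted p-values of 0.0476 and 0.0462. COL1A2 was at 14.1, 12.3 and 16.5 CPM in lung and 53.8, 171 and 37.2 CPM in liver there (-2.30 ± 0.52, adjusted p = 0.0599), a difference of 5.19 ± 0.75 between the experiments that did not pass in edgeR (adjusted p = 0.176) and passed in DESeq2 (adjusted p = 6.8e-05). HLA-DRA was at 8.07, 5.80 and 29.4 against 3.64, 10.2 and 21.1 CPM (0.25 ± 0.37), a difference of 2.44 ± 0.54 that did not pass in edgeR (adjusted p = 0.176), while DESeq2 gave 2.41 and an adjusted p of 0.00137. SERPINA5 was at or under 1.34 CPM in all 6 of those libraries. Its sign there was opposite (1.48 ± 0.52), as were those of MAGEB2 (-3.01 ± 1.17), SLITRK6 (-2.43 ± 0.91) and UNC5B (1.55 ± 0.87). None of these 4 passed in the first experiment. Their differences between the experiments did not pass in edgeR (adjusted p of 0.176 to 0.273) and passed in DESeq2 (adjusted p of 9.6e-07 to 0.0203). PAEP was at or under 2.00 CPM in the lungs and at 0, 75.7 and 4.14 CPM in the livers of mice 1 to 3, so its level in the first experiment was far below that of the retransplanted livers of mice 4 and 6, with levels compared across tables that were scaled together in the joint fit.

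**Figure D5:**
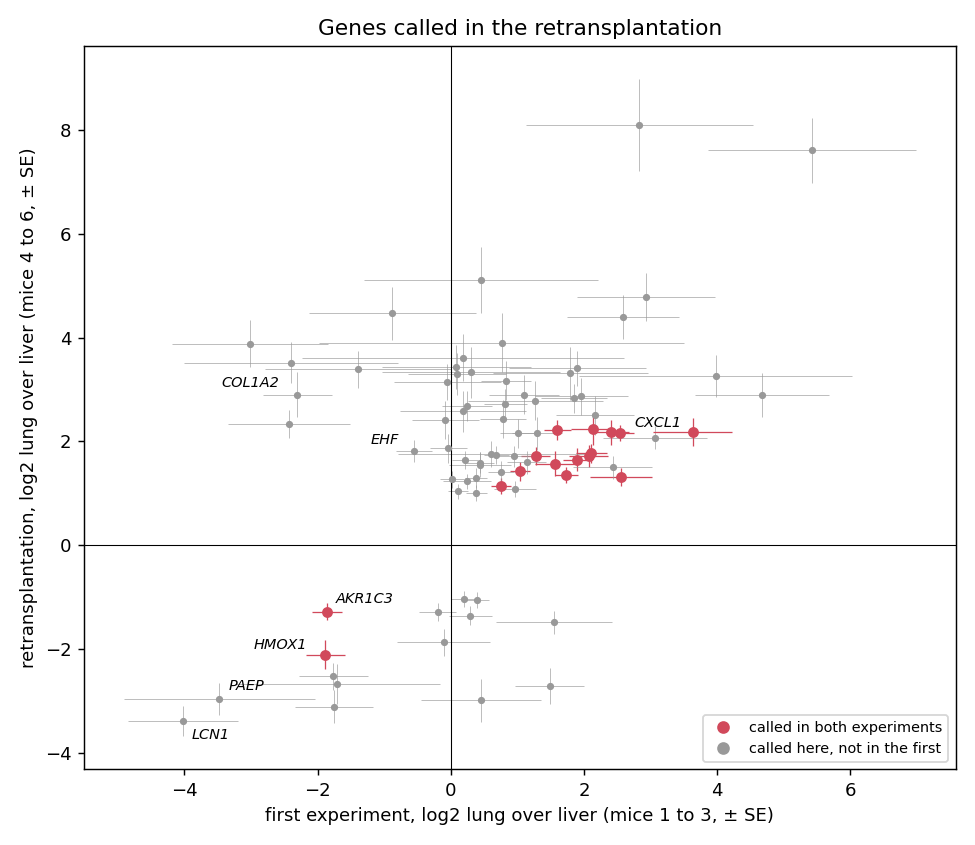
Log2 fold change, lung over liver, in the first experiment (x axis, mice 1 to 3) and in the retransplantation (y axis, mice 4 to 6), with SE, for the 81 called genes that had counts in both. The 16 genes called in both (red) lie in the upper right and lower left. COL1A2 and EHF are among the genes in the upper left, and EHF was picked after its values were seen.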

How the data were processed

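The values deposited by the authors were raw read counts per gene (whole numbers, 1 column per library), in a retransplantation table of 36291 genes and a first table of 38526 genes that share 33867. Per the labels' protocols the RNA went through an Illumina TruSeq v2 preparation, in which strand is lost, so overlapping or antisense genes cannot be told apart. Per the submitters' processing notes, GRCh38 was the build; featureCounts, STAR, cutadapt and bcl2fastq (2.15.0.4) are listed there with no roles. The annotation release is not given in the sources used here; gene coordinates came from GENCODE 29 (GRCh38), promoters from RefSeq (GRCh38.p14), and 36000 of the 36291 gene IDs had a symbol.

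The 6 retransplantation samples were filtered with filterByExpr, scaled by TMM and fitted in edgeR 4.0.16 (R 4.3.3; glmQLFit and glmQLFTest), with mouse as a block, Benjamini-Hochberg adjustment over 17549 genes and a threshold of 0.05; each SE was derived from the log2 change and its F statistic (absolute change over root F). Same-numbered samples come from the same mouse, per the labels; deviations from the organ means correlated at 0.279, 0.402 and 0.304 within mice 4, 5 and 6, and at -0.279 to 0.0153 between mice. Nothing is said of repeat preparations. The block takes out each mouse's own level, so p-values set the lung-liver difference against its variation among these mice. DESeq2 1.42.0, limma-voom (limma 3.58.1) and other filters and scalings were tried as alternatives, and the scripts were tested on simulated data. Named genes were those past the threshold with at least 5 CPM in the higher organ and all 3 mice in 1 direction, the 15 largest each way, and up to 4 called members of each list, plus members whose role makes a list readable. Uncalled members given as examples were partly picked after their values were seen. The members and lists were chosen with earlier results of these data known. Promoters were searched for the NF-kB consensus motif GGGRNNYYCC (10 bases, with R for A or G, Y for C or T and N for any base). The relaxed form allows A or G at the third base.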

Additional observations from a re-analysis of the deposited data

How the results depend on the processing

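No named gene changed sign under any alternative run, but many lost the call. Of the 41 named genes, 9, 11 and 8 lost it without mouse 4, 5 or 6, in that order. With a minimum of 1 CPM in 3 samples 14 lost it, and with no replicate block all 41 did. The fit with a minimum of 1 CPM in 3 samples gave the main sign for 72 of the 84 genes, the fit without mouse 4 for 83, and each other fit for all 84; genes an alternative did not test count as without a sign. The count of 84 became 0 in the fit with no replicate block (pairing by mouse removed), 664 with DESeq2 (452 higher and 212 lower), 1523 with no filter on low counts (956 higher and 567 lower) and 43 with a minimum of 1 CPM in 3 samples. Leaving out 1 mouse gave 105 to 149 calls. An alternative chosen after seeing the data, with no replicate block and the liver library of mouse 5 left out, gave 16 calls, and 5 of the 41 named genes passed there (COL3A1, GDF15, HMOX1, CXCL8 and TNFAIP3). Limma-voom, RLE factors, total counts and the robust fit gave 90, 93, 124 and 97. The difference between the experiments, 0 as reported, was 567 with DESeq2 and 0 to 1 without 1 mouse (SLITRK6 without mouse 2, CDH11 without mouse 5). The first experiment's 230 calls became 0 with no replicate block, 1990 with DESeq2 and 1 to 229 without 1 mouse. The cause of these changes was not tested. With 3 mice, low genes such as IL24 and HLA-DPB1 rest on few counts.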

Other observations

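Mitochondrial transcripts differed in level between the mice. The 13 mitochondrially encoded protein genes took 5.17%, 9.66% and 9.90% of counts in the lung samples of mice 4, 5 and 6 and 5.62%, 7.01% and 5.76% in the liver samples, a mean of 8.24% ± 2.67 in lung and 6.13% ± 0.766 in liver (SD, n = 3; exact paired permutation p = 0.5). Mouse 4 was slightly lower in lung and the other mice were higher. All 13 had positive fitted changes (median 0.55) and none passed. MT-ND5 (1.40 ± 0.26) and MT-ND6 (1.65 ± 0.29), which lie on opposite strands, had the highest values, at adjusted p-values of 0.0828 and 0.0720. MT-RNR1 was at 3096, 4302 and 3160 CPM in lung and 1262, 1617 and 784 CPM in liver.

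The median ratio of 25 DNA replication genes was 0.51 in mouse 5, 0.11 in mouse 4 and -0.11 in mouse 6, and that of 25 mitosis genes was 0.39, 0.21 and -0.09, with 0 calls in either list. A list of secreted and membrane mucins, trefoil factors and AGR2 had medians of 2.19 and 1.59 in mice 4 and 6 and 0.19 in mouse 5, whose liver library stood apart; TFF3 was at 75.7 CPM in that liver and at 31.7 CPM in the lung of the same mouse.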
